A study of Arabidopsis thaliana with 9 samples.

Results

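The genes described here are 10 regulators of flowering time in Arabidopsis thaliana seedlings. They are FLC, its relatives MAF1 to MAF5, the MADS-box gene SVP, and 3 promoters of flowering, SOC1, FT and SPL3. They were chosen by name, with earlier results of these data known. They are 10 of the 37898 genes with a deposited FPKM value (fragments per kilobase of transcript, scaled to the mapped fragments of the library). In the comparisons between genotypes, 9 of them were among the 18212 genes tested, those that reached an FPKM of 1 in 3 or more of the 9 libraries, while FT did not. RNA was polyadenylated RNA of whole 2-week-old seedlings, sequenced in 3 libraries each of nrpe1-11, nrpd1-3 and Col-0. The nrpe1-11 allele affects the gene NRPE1, which encodes the largest of the RNA polymerase V subunits, and nrpd1-3 affects NRPD1, its counterpart in RNA polymerase IV. Both mutants are in the Col-0 ecotype, Col-0 is the wild type, and all 9 libraries carry the treatment label Mock. Plants grew under a day of 16 h light (22 °C) and a night of 8 h (18 °C). The labels give 1 allele per mutated gene and no hour of collection. They do not say whether replicates came from separately grown plants, so p-values measure the spread between libraries. In whole seedlings, fewer cells of a type and less RNA per cell cannot be told apart.

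Flowering time in Arabidopsis is set by a balance of repressors and promoters. FLC and the MAF proteins are MADS-domain repressors that act with SVP, and their targets include FT, which encodes the mobile flowering signal made in leaf veins, and SOC1, which acts at the shoot tip. Prolonged cold silences FLC through Polycomb proteins, long days raise FT through CONSTANS, and SPL proteins promote flowering with age as the microRNA miR156 declines. RNA polymerases IV and V are plant enzymes known for producing the small RNAs and scaffold transcripts of RNA-directed DNA methylation.

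From the steps between low FPKM values, each library held an estimated 1.01 to 1.25 gigabases of aligned sequence. Col-0 replicate 2 stood apart, with 67.0% of its summed FPKM in protein-coding genes against 71.3% to 80.9% in the other libraries, and with 21.4% in ribosomal RNA against 14.2% to 19.7%. NRPE1 had 0.624, 0.254 and 0.339 FPKM in nrpe1-11 and 0.831, 0.843 and 0.863 FPKM in Col-0, lower in every nrpe1-11 library but not past the threshold (limma adjusted p = 0.196). In nrpd1-3 NRPE1 had 1.4, 1.28 and 1.19 FPKM, and it was called lower in nrpe1-11 than in nrpd1-3 (limma adjusted p = 0.0365). NRPD1 had 0.674, 0.67 and 0.947 FPKM in the libraries labelled nrpd1-3 and 0.565, 0.489 and 1.05 FPKM in Col-0. Its level thus did not mark the mutant, and the label was not checked by it. In nrpe1-11 NRPD1 had 1.56, 1.98 and 2.3 FPKM, called higher than in Col-0 (limma adjusted p = 0.019). That call was lost without Col-0 replicate 1 or 2 or nrpe1-11 replicate 2 or 3 (limma adjusted p of 0.0557 to 0.0788). Below, nrpd1-3 stands for the libraries that carry that label. The summed FPKM of 3 shoot markers was 3110 to 3510 in nrpe1-11, 5020 to 5280 in nrpd1-3 and 4990 to 5660 in Col-0. All 3 (RBCS1A, LHCB1.2 and RCA) were called lower in nrpe1-11 than in Col-0, beside 7.54% of all tested genes. The RBCS1A call was lost under quantile normalization (-0.09) and without the filter. The summed FPKM of 4 root markers was 523 to 545 in nrpe1-11, 395 to 485 in nrpd1-3 and 329 to 441 in Col-0. Most of that sum was PYK10, a beta-glucosidase gene, with 524 ± 11.6 FPKM in nrpe1-11 and 396 ± 63.6 FPKM in Col-0 (SD, n = 3). It differed by 0.42 (limma adjusted p = 0.0169) and was the 1 of the 4 called, beside 14.2% of all tested genes called higher. The PYK10 call was lost without the filter, under median-ratio rescaling, without Col-0 replicate 2 (adjusted p = 0.0562) and without nrpe1-11 replicate 3 (limma adjusted p = 0.0555). Shoot meristem markers summed to 7.03 to 8.22 FPKM in nrpe1-11, 4.3 to 6.57 in nrpd1-3 and 4.06 to 5.75 in Col-0, with WUS listed at 0 in every library. Each nrpe1-11 sum lay above those of the other 6 libraries. The sums were made up of STM and KNAT1, and each of these genes overlapped between nrpe1-11 and nrpd1-3. Of all tested genes, 28.7% lay higher without overlap in nrpe1-11 against Col-0 and 19.0% against nrpd1-3. In nrpe1-11 against Col-0, 0 of the 2 tested markers were called by limma, beside 21.7% of all tested genes. At an unadjusted p under 0.05 there were 2 of the 2, beside 6408 of the 18212 tested genes. STM, which maintains the shoot meristem, had 2.25, 2.38 and 3.15 FPKM in nrpe1-11 and 0.854, 1.45 and 1.89 FPKM in Col-0 (difference 0.6, limma adjusted p = 0.0827). Floral organ markers summed to 3.34 to 4.81 FPKM in nrpe1-11, 2.36 to 3.34 in nrpd1-3 and 0.959 to 4.31 in Col-0, with SEP2 listed at 0 in every library. PI, a petal and stamen identity gene, was at 1.05, 0.959 and 1.25 FPKM in nrpe1-11 and listed at 1.2, 0 and 0.419 FPKM in Col-0 (difference 0.51, limma adjusted p = 0.264). The seed markers CRA1 and OLEO1 were listed at 0 throughout.

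MAF2 to MAF5 lie in tandem on the forward strand within 20366 bp of chromosome 5. Their upstream sequences, 250 bases before each annotated start in RefSeq TAIR10.1, are shown, on the forward strand, because the pairs MAF4 and MAF5 and MAF2 and MAF3 hold the runs marked in capitals. The pair MAF4 and MAF5 shares a run of 20 bases that begins at -143 and -112 relative to the starts. The pair MAF2 and MAF3 shares a run of 18 bases that begins at -185 and -119. Not marked is a run of 18 bases shared by MAF2 and MAF4, at -27 and -41. MAF1, on chromosome 1, shares 35 bases with MAF2. With the first 50 bases of each gene also searched, the longest run that the neighbours MAF3 and MAF4 share is 9 bases. In MAF3 that run begins after the start, outside the letters shown.
MAF2, chr5:25982004-25982253: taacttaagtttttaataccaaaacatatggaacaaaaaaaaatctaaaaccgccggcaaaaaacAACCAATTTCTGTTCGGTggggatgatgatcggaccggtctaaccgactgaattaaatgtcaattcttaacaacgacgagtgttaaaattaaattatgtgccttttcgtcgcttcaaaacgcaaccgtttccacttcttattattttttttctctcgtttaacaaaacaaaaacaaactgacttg
MAF3, chr5:25987059-25987308: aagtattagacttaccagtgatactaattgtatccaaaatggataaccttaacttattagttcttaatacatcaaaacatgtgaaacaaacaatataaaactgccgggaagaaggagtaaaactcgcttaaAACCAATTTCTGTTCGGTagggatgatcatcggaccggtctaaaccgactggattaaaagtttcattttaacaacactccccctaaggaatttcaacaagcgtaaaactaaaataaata
MAF4, chr5:25991943-25992192: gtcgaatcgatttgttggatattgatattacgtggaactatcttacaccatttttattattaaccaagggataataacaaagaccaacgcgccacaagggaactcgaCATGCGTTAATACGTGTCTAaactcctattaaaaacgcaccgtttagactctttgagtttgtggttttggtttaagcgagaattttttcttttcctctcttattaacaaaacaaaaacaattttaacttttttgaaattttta
MAF5, chr5:25997254-25997503: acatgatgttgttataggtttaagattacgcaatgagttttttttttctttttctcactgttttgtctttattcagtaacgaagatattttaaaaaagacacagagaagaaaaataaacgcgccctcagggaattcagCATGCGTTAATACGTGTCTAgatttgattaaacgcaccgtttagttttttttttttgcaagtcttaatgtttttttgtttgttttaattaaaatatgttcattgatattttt
In windows of 300 bases, 250 before and 50 from the start on, the MAF4 and MAF5 run was found on either strand in 2 of 27444 protein-coding genes, and the MAF2 and MAF3 run in 3, the third being MAF1. The CArG box, the motif that MADS proteins bind, was searched only as the exact pattern CCWWWWWWGG, with W for A or T. That pattern was in none of the 10 windows of the flowering genes and in 837 of the 27444 windows (3.05%). It is the same on both strands. Forms of the box with a mismatch were not searched. The absence of these letters from a window says nothing of such forms or of binding elsewhere in the gene.

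SPL3 RNA carries a site for miR156, shown because SPL3 was one of the genes that changed. The mature miR156a, at chr2:10676534-10676553 on the reverse strand, is printed with its seed (bases 2 to 8) in capitals; the 5′ arms of MIR156b to MIR156f have the same letters. The sites are printed as DNA on the strand of the gene, with the bases that differ from the exact complement of miR156a in capitals; all are from RefSeq TAIR10.1.
miR156a: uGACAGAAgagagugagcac
SPL3 site, chr2:14305878-14305897, forward strand, 3′ UTR: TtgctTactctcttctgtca
SPL4 site, chr1:19807090-19807109, forward strand, 3′ UTR: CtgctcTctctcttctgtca
SPL2 site, chr5:17360758-17360777, reverse strand, coding sequence: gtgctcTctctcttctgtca
Annotated transcripts of 10 genes held a site with at most 2 mismatches. SPL3 and SPL4 had it in the 3′ UTR with 2 mismatches, and the other 8 had it in the coding sequence with 1 mismatch and the letters printed for SPL2.

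Among the 10 flowering genes, MAF5 and SPL3 stood higher in nrpe1-11 than in either other genotype, MAF2 was higher in nrpe1-11 than in Col-0, and none of the 9 tested genes was called in nrpd1-3 against Col-0 by limma. In nrpe1-11 against Col-0, 3 of the 9 tested genes were called higher, 0 lower and 6 were not called. Over all tested genes 14.2% were called higher, 7.54% lower and 21.7% in either direction. Of all called genes 65.3% were higher, 35.3% after median-ratio rescaling, 46.7% after quantile normalization and 53.3% without Col-0 replicate 2. A gene was called at a Benjamini-Hochberg adjusted p under 0.05 from limma (two-sided), fitted on log2(FPKM + 1) and adjusted over all tested genes; differences below are on that scale, which understates the change of low genes. The median difference of the 9 genes was 0.34, beside 0.17 over all tested genes. In 4 of the 9 (MAF2, MAF5, SVP and SPL3) every nrpe1-11 library lay above every Col-0 library, beside 28.7% of all tested genes.

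**Figure D1:**
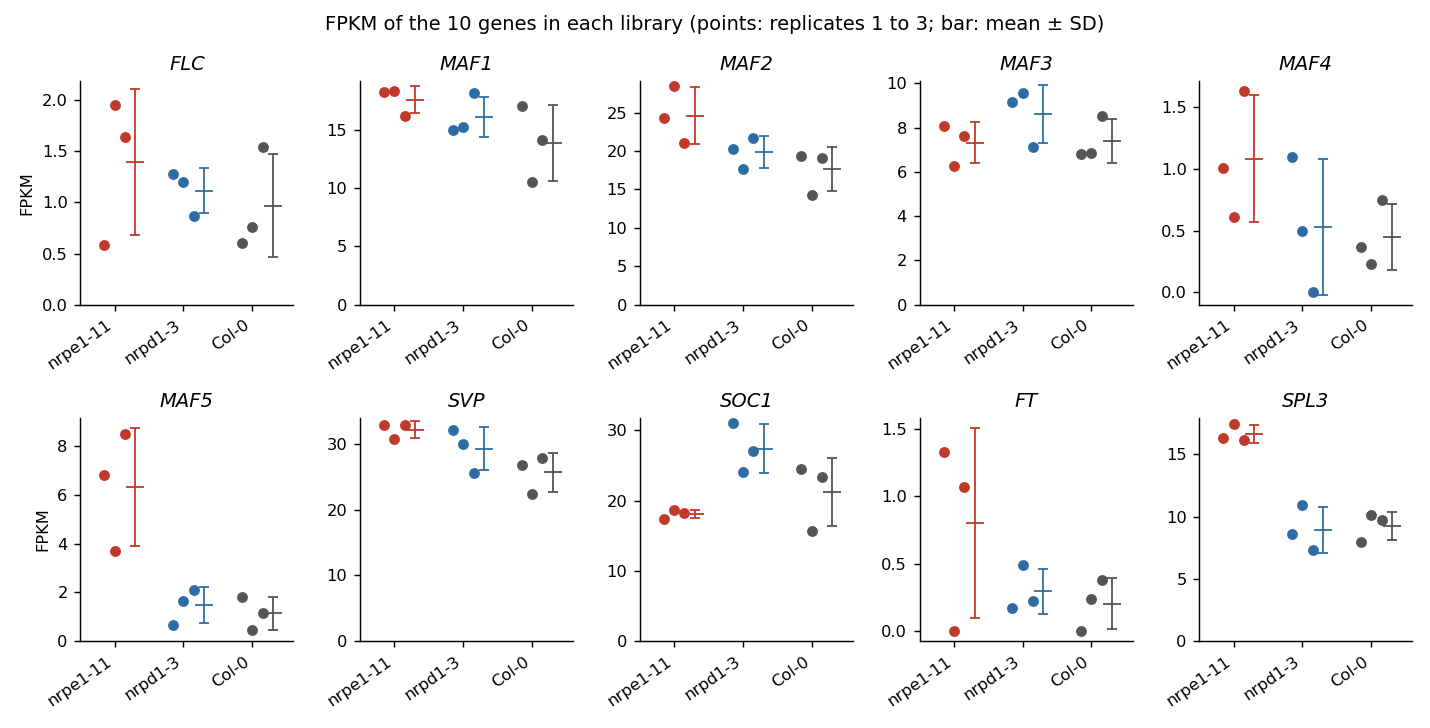
FPKM of each of the 10 genes (y axis, starting at or just below 0, a separate scale per gene) in the 3 libraries of nrpe1-11, nrpd1-3 and Col-0 (points), with the mean ± SD beside them. MAF5 and SPL3 separate nrpe1-11 from both other genotypes, with 3.71 to 8.46 and 16.1 to 17.4 FPKM in nrpe1-11.

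MAF5 (AT5G65080, chr5:25997504-26002619) had the largest difference of the 9 tested genes in nrpe1-11 against Col-0. It encodes a MADS-domain relative of FLC. It had 6.79, 3.71 and 8.46 FPKM in nrpe1-11, 0.655, 1.66 and 2.09 FPKM in nrpd1-3, and 1.8, 0.457 and 1.18 FPKM in Col-0. The lowest nrpe1-11 library lay above the highest library of the other genotypes, whose ranges overlapped each other. The means were 6.32 ± 2.41 FPKM in nrpe1-11, 1.47 ± 0.737 in nrpd1-3 and 1.15 ± 0.673 in Col-0 (SD, n = 3), a ratio of 5.52 between nrpe1-11 and Col-0. On the log2(FPKM + 1) scale the difference was 1.76 (SE 0.306, 95% interval 1.11 to 2.41, limma adjusted p = 0.000852). It ranged between 1.51 and 2.05 when single libraries were left out and was called each time. The Col-0 values rested on an estimated 2721, 568 and 1764 aligned bases, and the nrpe1-11 values on 8809, 5079 and 12589. Such estimates use the joined exons of all annotated transcripts and can overstate the bases of a gene with several transcripts.

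MAF2 (AT5G65050, also AGL31, chr5:25982254-25986435) is known to keep plants from flowering after short cold spells. Its FPKM was 24.3, 28.4 and 21.0 in nrpe1-11, 20.2, 17.6 and 21.7 in nrpd1-3, and 19.4, 14.3 and 19.1 in Col-0. All nrpe1-11 libraries lay above all Col-0 libraries, while nrpd1-3 overlapped both. The means were 24.6 ± 3.69 FPKM in nrpe1-11 and 17.6 ± 2.87 in Col-0 (SD, n = 3), a ratio of 1.4 and a difference of 0.46 on the log2 scale (SE 0.142, limma adjusted p = 0.0306). Col-0 replicate 2 was the lowest of the 9 libraries for MAF2, and without it the difference was 0.33 and no longer called (limma adjusted p = 0.11). The call was also lost without nrpe1-11 replicate 1 (adjusted p = 0.0743) or replicate 2 (adjusted p = 0.135), and under median-ratio rescaling, which gave 0.28 (limma adjusted p = 0.0979), quantile normalization (adjusted p = 0.0669) or no filter (adjusted p = 0.168).

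MAF3 (AT5G65060, chr5:25987309-25991412) and MAF4 (AT5G65070, chr5:25992193-25996202) lie between MAF2 and MAF5 and encode repressors of the same clade. MAF3 had 8.07, 6.28 and 7.61 FPKM in nrpe1-11, 9.17, 9.56 and 7.12 in nrpd1-3, and 6.83, 6.84 and 8.54 in Col-0, with all ranges overlapping. Its difference between nrpe1-11 and Col-0 was -0.01, with a 95% interval of -0.35 to 0.32. MAF4 had 1.01, 0.612 and 1.63 FPKM in nrpe1-11, 1.1, 0.498 and 0 in nrpd1-3, and 0.368, 0.226 and 0.744 in Col-0. These ranges overlapped as well, and the MAF4 difference of 0.51 between nrpe1-11 and Col-0 had an interval of -0.12 to 1.15 (limma adjusted p = 0.232).

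Summed over MAF2 to MAF5, the FPKM was 40.2, 39.0 and 38.7 in nrpe1-11, 31.1, 29.3 and 30.9 in nrpd1-3, and 28.4, 21.8 and 29.6 in Col-0. MAF5 took 16.9%, 9.51% and 21.8% of that sum in nrpe1-11, 2.11%, 5.68% and 6.77% in nrpd1-3, and 6.34%, 2.1% and 3.99% in Col-0. Each nrpe1-11 library thus lay above the other 6 in both the sum and the MAF5 share. Of single tested genes, 28.7% lay higher without overlap in nrpe1-11 against Col-0 and 19.0% against nrpd1-3. The sums and shares were neither tested nor rescaled, and they hold MAF2 and MAF5, the genes of the cluster called against Col-0. The lowest sum, 21.8, was that of Col-0 replicate 2. The ratio of MAF2 to MAF3 was 3.02, 4.52 and 2.76 in nrpe1-11, 2.2, 1.84 and 3.04 in nrpd1-3, and 2.84, 2.09 and 2.24 in Col-0, with overlap. The gaps between the genes are 873, 780 and 1301 bp. Coding sequences of MAF2 and MAF3 were 93.6% identical over aligned bases and those of MAF4 and MAF5 85.7%, with longest shared exonic runs of 59 and 43 bases. MAF1, on chromosome 1, shares exonic runs of 61 bases with MAF3 and 44 bases with MAF2. How reads in such shared runs were assigned is not stated in the labels. The split between MAF1, MAF2 and MAF3 and between MAF4 and MAF5 is uncertain where reads are shorter than those runs.

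**Figure D2:**
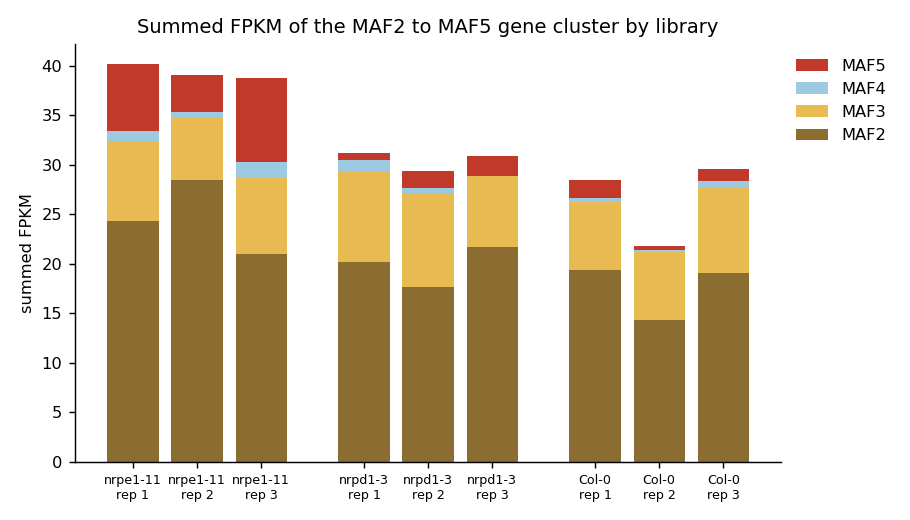
Summed FPKM of MAF2 to MAF5 (y axis) as stacked bars for each library, with 1 colour per gene and nrpe1-11 at the left. The nrpe1-11 bars reach 38.7 to 40.2 FPKM, and their MAF5 segments are the largest of the 9 libraries.

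FLC (AT5G10140, chr5:3173382-3179448, reverse strand), the central repressor of the vernalization response, stayed low in all genotypes. It had 0.587, 1.95 and 1.64 FPKM in nrpe1-11, 1.28, 1.2 and 0.869 in nrpd1-3, and 0.602, 0.765 and 1.54 in Col-0. The groups overlapped, and the difference between nrpe1-11 and Col-0 was 0.26 with a 95% interval of -0.31 to 0.83 (limma adjusted p = 0.51). That interval holds 0.46, the difference seen for MAF2, so whether FLC differed by as much was not shown given the spread between libraries. Leaving out single libraries gave differences of 0.08 to 0.53, none of them called. Its values rested on an estimated 733 to 2568 aligned bases per library. COOLAIR (AT5G01675), the antisense RNA of FLC, was listed at 0 in every library but nrpd1-3 replicate 3, which had 0.351 FPKM. Library strandedness was not stated in the labels, so reads of FLC and COOLAIR cannot be told apart where the genes overlap.

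MAF1 (AT1G77080, chr1:28955483-28960234), known as FLM for its part in the response to ambient temperature, had 18.2, 18.3 and 16.2 FPKM in nrpe1-11, 15, 15.2 and 18.1 in nrpd1-3, and 17.0, 10.5 and 14.1 in Col-0. The nrpe1-11 and Col-0 ranges overlapped, and their difference of 0.34 (95% interval 0.02 to 0.67) did not pass the threshold (limma adjusted p = 0.12). The MAF1 difference was 0.49 and called without Col-0 replicate 1 (limma adjusted p = 0.0354), but 0.17 and not called without Col-0 replicate 2 (limma adjusted p = 0.423) or under median-ratio rescaling (limma adjusted p = 0.398). SVP (AT2G22540, chr2:9579647-9583901), the MADS-domain partner of FLC and MAF1, had 32.9, 30.7 and 32.8 FPKM in nrpe1-11, 32, 30 and 25.6 in nrpd1-3, and 26.8, 22.3 and 27.8 in Col-0. All nrpe1-11 libraries lay above all Col-0 libraries for SVP, with a difference of 0.32 (95% interval 0.08 to 0.57) that did not pass the threshold (limma adjusted p = 0.0573). It passed when tested genes were limited to a mean FPKM of at least 5 (limma adjusted p = 0.0417), while median-ratio rescaling gave 0.14 (limma adjusted p = 0.378), quantile normalization 0.2 (limma adjusted p = 0.182) and the fit without Col-0 replicate 2 gave 0.23 (limma adjusted p = 0.174). Both genes were lowest in Col-0 replicate 2, the library with the least protein-coding signal.

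SPL3 (AT2G33810, chr2:14305001-14306072) encodes a small transcription factor that promotes the switch to flowering. It had 16.3, 17.4 and 16.1 FPKM in nrpe1-11, 8.62, 10.9 and 7.28 in nrpd1-3, and 8.0, 10.1 and 9.69 in Col-0. The nrpe1-11 libraries were close together and all above the other 6. The means were 16.6 ± 0.696 FPKM in nrpe1-11, 8.92 ± 1.8 in nrpd1-3 and 9.28 ± 1.13 in Col-0 (SD, n = 3), a ratio of 1.79 between nrpe1-11 and Col-0. The difference was 0.78 on the log2 scale (SE 0.147, 95% interval 0.47 to 1.09, limma adjusted p = 0.00153), and 0.69 to 0.84 with single libraries left out, called each time. A long noncoding RNA on the other strand, AT2G33815, spans nearly all of SPL3 (chr2:14305008-14306053). It was listed at 0.426, 0 and 0 FPKM in nrpe1-11, at 0.173, 0.196 and 0.205 in nrpd1-3, and at 0 in the Col-0 libraries. Reads of SPL3 and AT2G33815 cannot be told apart without strand.

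Of the 10 genes with a miR156 site, a list drawn up after the values of SPL3 were known, 9 were tested and SPL3 was the 1 called in nrpe1-11 against Col-0, beside 21.7% of all tested genes in either direction. The median difference of the 9 was 0.3, beside 0.17 over all tested genes. SPL2 had 9.32, 9.24 and 10.1 FPKM in nrpe1-11, 9.47, 6.73 and 6.48 in nrpd1-3, and 8.64, 5.93 and 6.79 in Col-0, a difference of 0.39 between nrpe1-11 and Col-0 that did not pass the threshold (limma adjusted p = 0.105). SPL4, which shares the 3′ UTR position of the site with SPL3, had 2.33, 1.58 and 2.23 FPKM in nrpe1-11 and 3.14, 3.41 and 1.66 in Col-0, a difference of -0.27 with a 95% interval of -0.84 to 0.3. On the reverse strand at the sites of SPL4 and SPL9, the annotation also places MIR156i and MIR156j. Reads there cannot be told apart without strand, and these microRNA genes are not among those listed next. Of 13 listed microRNA genes (MIR156A to MIR156H and MIR172A to MIR172E), read over their annotated spans and not as whole primary transcripts, 1 was tested. That gene, MIR156C, had 2.41, 2.41 and 0.222 FPKM in nrpe1-11 and 1.62, 3.4 and 1.64 FPKM in Col-0, with a difference of -0.37 (limma adjusted p = 0.498). Mature microRNAs were not measured.

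**Figure D3:**
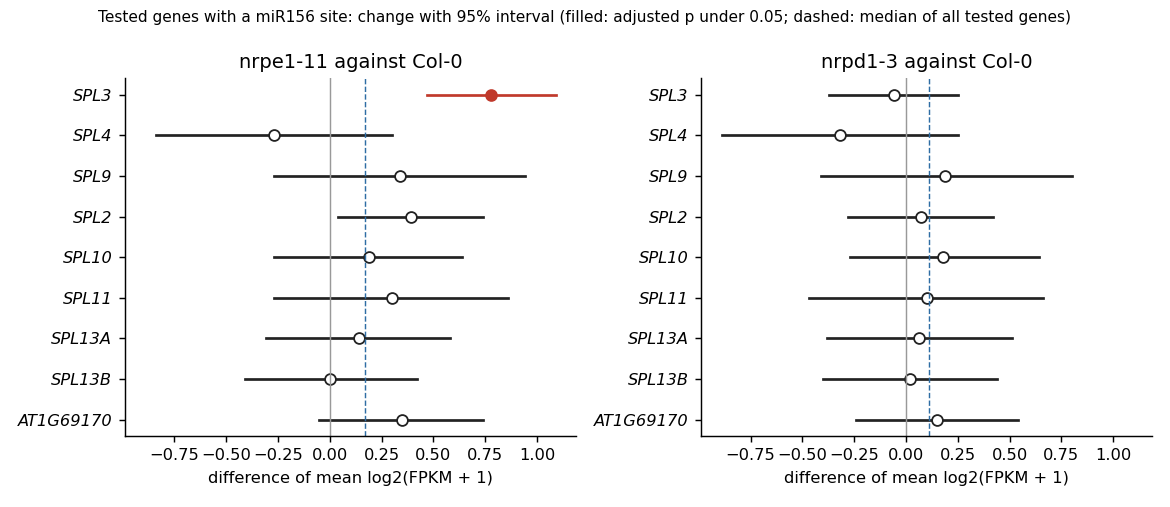
Difference of mean log2(FPKM + 1) (x axis) with its 95% interval for the 9 tested genes with a miR156 site, in nrpe1-11 against Col-0 (left) and nrpd1-3 against Col-0 (right); filled points passed the threshold. SPL3, at 0.78 in nrpe1-11 against Col-0, is the filled point.

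SOC1 (AT2G45660, also AGL20, chr2:18807505-18811125, reverse strand), the MADS-domain integrator that gathers several flowering pathways, had 17.4, 18.6 and 18.2 FPKM in nrpe1-11, 31, 24 and 27.1 in nrpd1-3, and 24.5, 15.7 and 23.4 in Col-0. All nrpe1-11 libraries lay below all nrpd1-3 libraries, while Col-0 spanned a range that overlapped nrpe1-11 through its replicate 2. The difference between nrpe1-11 and Col-0 was -0.19 with a 95% interval of -0.51 to 0.12 (limma adjusted p = 0.372). It was -0.39 and called without Col-0 replicate 2 (limma adjusted p = 0.036), and -0.37 and called under median-ratio rescaling (limma adjusted p = 0.0299).

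FT (AT1G65480, chr1:24331373-24333999) was near the limit of detection. It was listed at 1.33, 0 and 1.07 FPKM in nrpe1-11, at 0.175, 0.487 and 0.222 in nrpd1-3, and at 0, 0.238 and 0.377 in Col-0. In nrpe1-11, 2 libraries lay above the other genotypes and the remaining one was listed at 0. These values rested on an estimated 1372, 0 and 1260 aligned bases in nrpe1-11, 213, 563 and 236 in nrpd1-3, and 0, 235 and 448 in Col-0. A fit without the expression filter gave a difference of 0.5 between nrpe1-11 and Col-0, with a 95% interval of -0.27 to 1.27 (limma adjusted p = 0.584), so a difference in FT was not shown.

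In nrpd1-3 against Col-0, 0 of the 9 tested genes were called in limma, as were 0.0% of all tested genes. At an unadjusted p under 0.05 there were 1 of the 9 and 1284 of all tested genes. The 1 was SOC1, with a difference of 0.37 (95% interval 0.05 to 0.69, limma adjusted p = 0.681); leaving out single libraries gave 0.18 to 0.48, with 0.18 without Col-0 replicate 2. MAF5 differed by 0.2 between nrpd1-3 and Col-0 with an interval of -0.45 to 0.86, and SPL3 by -0.06 with an interval of -0.37 to 0.25. For SPL3 the nrpd1-3 interval therefore stayed below the 0.78 seen in nrpe1-11. The median of the 9 genes was 0.18, beside 0.11 over all tested genes.

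The mutants were also compared directly, as a test of whether the genes differed between them. In nrpe1-11 against nrpd1-3, MAF5 and SPL3 were called higher, SOC1 was called lower and the other 6 tested genes were not called, beside 6.19% of all tested genes called higher, 8.52% lower and 14.7% in either direction. For the same 3 genes the mutants' libraries did not overlap, beside 19.0% of all tested genes without overlap and higher and 14.5% lower. MAF5 differed by 1.56 (95% interval 0.9 to 2.21, limma adjusted p = 0.00242) and SPL3 by 0.84 (95% interval 0.53 to 1.15, limma adjusted p = 0.000909). SOC1 differed by -0.57 (95% interval -0.88 to -0.25, limma adjusted p = 0.0178), with means of 18.1 ± 0.605 FPKM in nrpe1-11 and 27.4 ± 3.54 FPKM in nrpd1-3 (SD, n = 3). The SOC1 call was lost without nrpd1-3 replicate 1 (adjusted p = 0.0872), nrpe1-11 replicate 1 (adjusted p = 0.0605) or nrpe1-11 replicate 3 (limma adjusted p = 0.0515). MAF2 differed by 0.29 between the mutants, with an interval of -0.01 to 0.6 (limma adjusted p = 0.198), so a difference in its response between nrpe1-11 and nrpd1-3 was not shown. This comparison shares the nrpe1-11 libraries with that against Col-0.

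**Figure D4:**
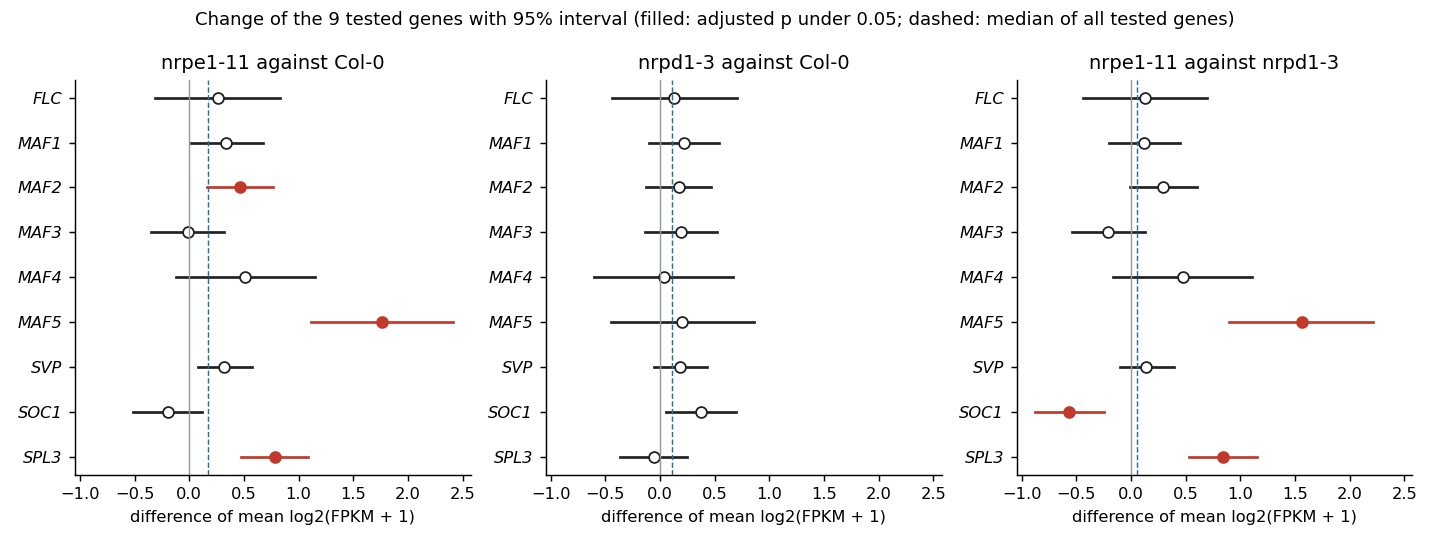
Difference of mean log2(FPKM + 1) (x axis) with its 95% interval for the 9 tested flowering genes in the 3 comparisons (panels); filled points passed the threshold and the dashed line is the median of all tested genes. In the panel of nrpd1-3 against Col-0 every point is open, while MAF5 (1.56), SPL3 (0.84) and SOC1 (-0.57) are filled between the mutants.

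The order of the FPKM levels also differed. In nrpe1-11 it was SVP, MAF2, SOC1, MAF1, SPL3, MAF3, MAF5, FLC, MAF4 and FT, and the ranges of neighbours overlapped for SOC1 to SPL3, for MAF3 and MAF5, and for FLC to FT. In nrpd1-3 and in Col-0 SOC1 came second, after SVP, and the order was then MAF2, MAF1, SPL3, MAF3, MAF5, FLC, MAF4 and FT. In both, neighbouring ranges overlapped for SVP and SOC1, for MAF2 and MAF1, for SPL3 and MAF3, and for MAF5 to FT, and in Col-0 also for SOC1 and MAF2. The range of SPL3 thus overlapped that of MAF1 in nrpe1-11 and that of MAF3 in nrpd1-3 and Col-0. The range of MAF5 overlapped that of MAF3 in nrpe1-11, and those of FLC and MAF4 in nrpd1-3 and Col-0.

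Of 16 annotated genes adjacent to or overlapping the 10 flowering genes 9 were tested, and 1 was called in nrpe1-11 against Col-0, beside 21.7% of all tested genes. That gene, AT1G77090, encodes a thylakoid lumen protein of the PsbP family. It lies on the reverse strand, with its 3′ end 77 bp beyond MAF1. It had 5.86, 5.42 and 6.48 FPKM in nrpe1-11, 11.3, 11.4 and 12.5 in nrpd1-3, and 8.73, 9.56 and 11.6 in Col-0, so it lay lower in nrpe1-11 than in Col-0 (difference -0.66, limma adjusted p = 0.00362). BST1, the gene after MAF5 at 1262 bp, was not tested, with 1.09, 0.277 and 0.76 FPKM in nrpe1-11 and 0.473, 0.878 and 0.683 FPKM in Col-0.

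Lists of genes that act upstream of the FLC clade are given beside the 14.2% of all tested genes called higher and 7.54% called lower in nrpe1-11 against Col-0. Of 16 activators of FLC, 2 were called higher and 0 lower, with a median of 0.23. VIP5, a subunit of the PAF1 elongation complex, averaged 18.9 ± 1.46 FPKM in nrpe1-11 and 12.4 ± 1.31 FPKM in Col-0 (SD, n = 3; difference 0.57, limma adjusted p = 0.0031). SEF, a subunit of the SWR1 complex that places the histone variant H2A.Z, had 10, 7.65 and 10.6 FPKM in nrpe1-11 and 5.63, 4.2 and 5.62 FPKM in Col-0 (difference 0.76, limma adjusted p = 0.01). Of 10 genes of the autonomous pathway, which lowers FLC RNA, 0 were called by limma, with a median of 0.11. At an unadjusted p under 0.05 there were 0 of these 10, beside 6408 of the 18212 tested genes. REF6, a histone demethylase that counteracts Polycomb marks and the member with the smallest p, differed by 0.37 (limma adjusted p = 0.177). Of 10 tested vernalization and Polycomb genes, 2 were called higher and 0 lower, with a median of 0.3. An unadjusted p under 0.05 was found for 5 of these 10 and for 4 of the 16 activators of FLC. VEL1, a relative of VIN3, averaged 29.0 ± 1.71 FPKM in nrpe1-11 and 20.2 ± 3.22 FPKM in Col-0 (SD, n = 3; difference 0.51, limma adjusted p = 0.0121), a call lost without nrpe1-11 replicate 2 (adjusted p = 0.0521). LHP1, a reader of the Polycomb mark, averaged 7.55 ± 0.68 FPKM in nrpe1-11 and 5.4 ± 0.423 FPKM in Col-0 (SD, n = 3; difference 0.42, limma adjusted p = 0.048), and that call was lost in 13 of 18 alternative fits. VIN3, which cold induces, was listed at 0 in every library but nrpd1-3 replicate 2, which had 0.106 FPKM.

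Genes that act on FT were called in both directions, as were 14.2% (higher) and 7.54% (lower) of all tested genes. Among 7 genes of the photoperiod input to FT, 1 was called higher in nrpe1-11 than in Col-0 and 2 lower, with a median of -0.08. CDF3, a repressor of CONSTANS, averaged 2.24 ± 0.825 FPKM in nrpe1-11 and 9.7 ± 0.212 FPKM in Col-0 (SD, n = 3; difference -1.75, limma adjusted p = 3.19e-06). GI, which helps to remove CDF proteins, had 9.59, 9.27 and 10.2 FPKM in nrpe1-11 and 11.6, 13.5 and 13.2 FPKM in Col-0 (difference -0.36, limma adjusted p = 0.0377). CO, the gene CONSTANS, had 1.31, 1.46 and 2.22 FPKM in nrpe1-11 and 0.546, 0.579 and 0.777 FPKM in Col-0 (difference 0.69, limma adjusted p = 0.0394). The CO call was lost without any one of the nrpe1-11 or Col-0 libraries (adjusted p of 0.0506 to 0.161), and that of GI without any one nrpe1-11 library and without Col-0 replicate 2 or 3 (adjusted p of 0.0653 to 0.112). Among 8 other repressors of FT, 0 were called higher and 3 lower, with a median of -0.22. SNZ, an AP2-like repressor, had 0, 0.292 and 0.708 FPKM in nrpe1-11 and 2.56, 2.22 and 3.4 FPKM in Col-0 (difference -1.50, limma adjusted p = 0.000497). TEM1 and TEM2, RAV-family repressors, averaged 27.2 ± 2.3 and 23.3 ± 2.13 FPKM in nrpe1-11 and 38.2 ± 2.63 and 35 ± 1.15 FPKM in Col-0 (SD, n = 3; differences -0.48 and -0.57, limma adjusted p = 0.00379 and 0.00157).

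Among partners and targets of the integrators 7 of 13 genes were tested, and 2 were called higher in nrpe1-11 than in Col-0 and 0 lower, beside 14.2% and 7.54% of all tested genes, with a median of 0.36. AGL24, a MADS-domain partner of SOC1, had 11.4, 13.9 and 11.3 FPKM in nrpe1-11 and 6.67, 3.96 and 8.04 FPKM in Col-0 (difference 0.91, limma adjusted p = 0.00436). AGL19, a promoter of flowering that Polycomb represses, had 3.27, 1.85 and 1.43 FPKM in nrpe1-11 and 0.762, 0.36 and 1.15 FPKM in Col-0 (difference 0.84, limma adjusted p = 0.0314). The AGL19 call was lost without Col-0 replicate 1 or 2 or nrpe1-11 replicate 1 or 2 (adjusted p of 0.0575 to 0.143). Without the filter on low values, the calls of SEF, VEL1, CO, AGL24 and AGL19 were lost (limma adjusted p of 0.052 to 0.167), and under median-ratio rescaling those of LHP1 (adjusted p = 0.219), CO (adjusted p = 0.0735) and AGL19 (adjusted p = 0.0605). The meristem identity genes LFY, AP1 and CAL had at most 0.612 FPKM in any library and were not tested. FUL, a MADS-box gene of the same group, was tested and had 1.11, 1.29 and 1.24 FPKM in nrpe1-11 and 0.377, 0.769 and 0.83 FPKM in Col-0 (difference 0.43, limma adjusted p = 0.174). Of the 70 tested genes in these lists, the miRNA list and the clock list, 0 were called in nrpd1-3 against Col-0 by limma, beside 0.0% of all tested genes. At an unadjusted p under 0.05 there were 3 of the 70, beside 1284 of the 18212 tested genes.

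Genes of the circadian clock and of the shoot moved in the same nrpe1-11 libraries. All 11 clock genes were called against Col-0, 5 higher and 6 lower, beside 14.2% of all tested genes called higher and 7.54% lower. The clock list, like the other lists, was chosen with earlier results of these data known. CCA1, a morning-phased repressor, averaged 0.645 ± 0.239 FPKM in nrpe1-11 and 7.09 ± 0.376 FPKM in Col-0, PRR9, a clock repressor, averaged 0.503 ± 0.211 FPKM in nrpe1-11 and 4.35 ± 1.13 FPKM in Col-0, and CCR2, an evening-phased RNA-binding protein gene, averaged 889 ± 36.7 FPKM in nrpe1-11 and 438 ± 19.1 FPKM in Col-0 (SD, n = 3; limma adjusted p of 1.47e-07, 2.27e-05 and 2.3e-07). CO, GI, CDF3 and FT follow the time of day, and the part of the clock, shoot, root and meristem marker values in the differences of the flowering genes was not tested.

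**Figure D5:**
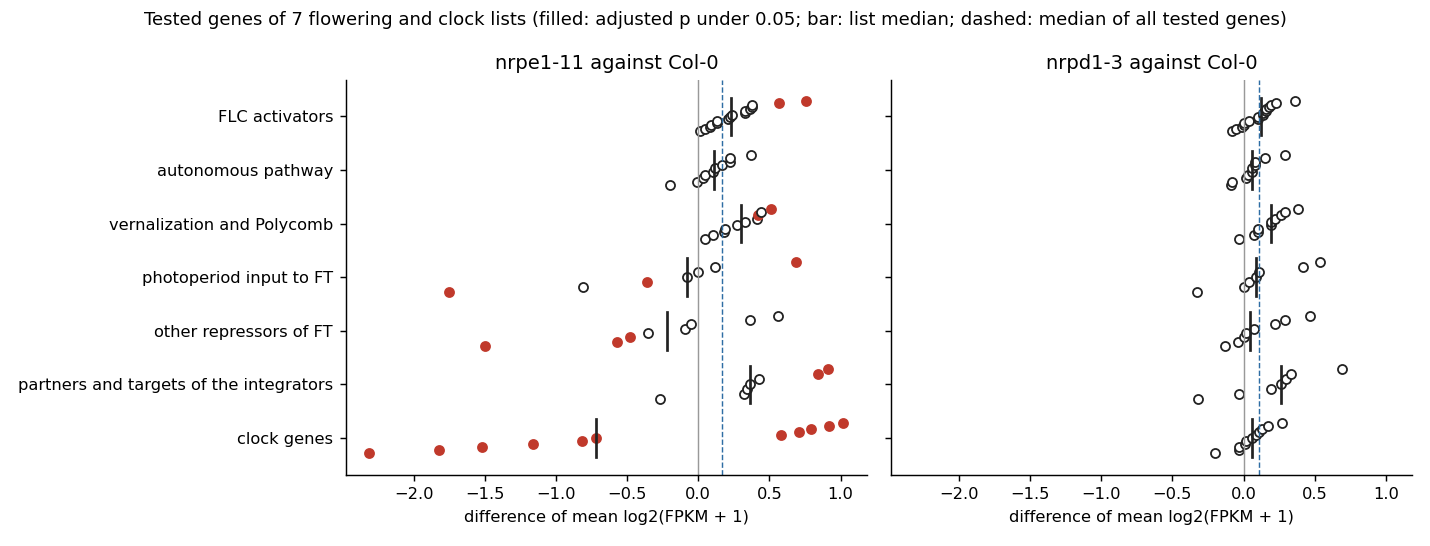
Difference of mean log2(FPKM + 1) (x axis) of the tested genes of 6 flowering lists and the clock list (rows), in nrpe1-11 against Col-0 (left) and nrpd1-3 against Col-0 (right). Filled points passed the threshold, the bar is the list median and the dashed line the median of all tested genes. All 11 clock genes are filled at the left, where 21.7% of all tested genes were called, and no gene is filled at the right. The lists were chosen with earlier results of these data known.

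For the called genes, the tested genes most alike over the 9 libraries were listed by the Pearson correlation of log2(FPKM + 1), as a description of libraries that differ in genotype. For MAF5 they were AT4G26220 (r = 0.987), ELO3 (r = 0.982) and AT1G57720 (r = 0.979). For MAF2 they were LCAT3 (r = 0.98), UBP8 (r = 0.978) and AT1G20880 (r = 0.974). For SPL3 they were AT2G37130 and AT2G35820 (both r = 0.965) and the nitrate transporter gene NRT1.1 (r = 0.961).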

How the data were processed

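Polyadenylated RNA of 9 seedling libraries was sequenced. The authors deposited FPKM values. The submitters' processing notes name the tools fastp 0.23.2, StringTie 2.1.7 and HISAT2 2.2.1, and TAIR10 as the build; settings, read length and strandedness are not given in the sources used here. The table held 37929 lines for 37898 genes, and the 1 gene on 32 lines was read from its line above 0. All genes matched RefSeq TAIR10.1, the source of coordinates and sequences. Depth was estimated in genes with 1 annotated transcript, from low FPKM values times exon length. Of these products, 71.9% to 75.6% per library were within 0.1 of a whole step. Aligned bases of the flowering genes were estimated with the joined exon length of all their annotated transcripts.

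A limma 3.58.1 model (R 4.3.3) of log2(FPKM + 1), with a mean for each genotype and an intensity trend, used all 9 libraries. Genes that reached 1 FPKM in 3 or more libraries were tested, two-sided, and called at a Benjamini-Hochberg adjusted p under 0.05. The workflow was tested on simulated data. Alternatives were a pseudocount of 0.1, no filter, a minimum mean of 5 FPKM, rescaling by median ratios, quantiles or the protein-coding sum, the replicate number as a block, only the 6 libraries compared, robust empirical Bayes and each library left out.

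The 10 genes and all lists were chosen with earlier results of these data known. The 10 were always named. From each list came up to 3 called members by adjusted p in nrpe1-11 against Col-0 or, with none called, the 1 with the smallest p. Called genes next to one of the 10 and the 3 most alike genes of each called member were named too. SPL2, SPL4, BST1, VIN3, LFY, AP1, CAL, FUL and AT2G33815 were added after their values were seen.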

Additional observations from a re-analysis of the deposited data

Results flagged for a closer look

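The direct comparison of the mutants marked 3 of the flowering genes as differing between them. For MAF5, nrpe1-11 exceeded nrpd1-3 by 1.56 on the log2(FPKM + 1) scale, with 3 of 3 nrpe1-11 libraries above all nrpd1-3 libraries. For SPL3 the difference was 0.84, again with no overlap. For SOC1 it was -0.57, with 3 of 3 nrpe1-11 libraries below all nrpd1-3 libraries.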

How the results depend on the processing

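MAF5 and SPL3 in nrpe1-11 against Col-0 were called under every alternative in which they were tested; MAF5 was not tested at a mean FPKM of at least 5. Of 477 values of the flowering genes under alternatives, 451 kept their direction and their side of the threshold, 11 lost a call, 5 gained one and 10 turned direction, none of these 10 called. With no filter, 2173 genes were called between nrpe1-11 and Col-0, 2 between nrpd1-3 and Col-0 and 1668 between the mutants, with 1 of the 10 flowering genes among the last, where MAF5 (adjusted p = 0.0902) and SOC1 (adjusted p = 0.161) in limma lost their calls; more genes were tested there. Leaving out single libraries gave 2766 to 4128 called genes between nrpe1-11 and Col-0 (2 to 4 of the flowering genes), 1986 to 3345 between the mutants (2 to 3 of the flowering genes) and 0 between nrpd1-3 and Col-0. Median-ratio rescaling moved the median of all tested genes in nrpe1-11 against Col-0 to 0.02, against 0.17, and left 35.3% of the called genes higher, against 65.3%; quantile normalization gave 46.7%. Relative to the median of 0.17, MAF5 differed by 1.59, SPL3 by 0.61, MAF2 by 0.29, SVP by 0.15, MAF3 by -0.19 and SOC1 by -0.37. Differences near 0 turned direction, and the cause was not tested: in nrpd1-3 against Col-0, MAF4 was -0.28 with a pseudocount of 0.1 and NRPD1 -0.02 under quantile normalization. With single libraries left out, ranges in nrpd1-3 against Col-0 were -0.22 to 0.31 for MAF4, -0.05 to 0.47 for MAF5, -0.2 to 0.06 for SPL3, -0.0 to 0.33 for FLC and -0.03 to 0.2 for NRPD1. They were -0.08 to 0.08 for MAF3 and -0.61 to 0.13 for MIR156C in nrpe1-11 against Col-0, and -0.04 to 0.4 for FLC in nrpe1-11 against nrpd1-3. Deviations from the genotype means had correlations of -0.072 to 0.146 between same-numbered replicates of different genotypes, and of -0.124 to 0.07 between the others. Such values, from 3 libraries per genotype, do not settle whether the numbers pair the samples. With the replicate block, 4428, 0 and 2996 genes were called in the 3 comparisons and 4, 0 and 3 flowering genes, SVP being the gene added. FT, FLC and MAF4, with means of at most 1.39 FPKM per genotype, had intervals in nrpe1-11 against Col-0 that held both 0 and the MAF2 difference of 0.46.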
